A study of Homo sapiens with 12 samples.

Results

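Expression of 10 genes of HLA class II antigen presentation was followed in SU-DHL-4 cells exposed to a SYK inhibitor, a BET inhibitor or both. The genes were picked by symbol and role. They are CIITA, the class II transactivator; CD74, the invariant chain; the alpha and beta chain genes HLA-DRA, HLA-DRB1, HLA-DPA1, HLA-DPB1, HLA-DQA1 and HLA-DQB1; and HLA-DMA and HLA-DMB, which load peptides. These are 10 of the 46863 symbols of the count table, and all 10 were among the 16835 genes left after a filter on low counts.

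SU-DHL-4 is an established line of diffuse large B-cell lymphoma (DLBCL) obtained from a peritoneal effusion, and its genotype is given as wt. Cells were kept for 72 h with DMSO (vehicle), with 1 µM entospletinib (Ento), which inhibits SYK, a kinase of B cell receptor signalling, with 0.01 µM AZD5153 (AZD), which binds the bromodomains of BET proteins, or with both agents at those concentrations (Ento+AZD). Each of the 4 groups had 3 libraries, numbered 1 to 3, with 18121993 to 24675830 counted reads each. All values come from 1 cell line, 1 concentration of each agent and 1 time point.

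HLA class II molecules are pairs of an alpha and a beta chain that present peptides to CD4+ T cells, and they are made chiefly by B cells, dendritic cells and macrophages. A new pair leaves the endoplasmic reticulum with CD74 in its peptide groove. In endosomes CD74 is cut to a short fragment, which HLA-DM, the pair of HLA-DMA and HLA-DMB, exchanges for a peptide. CIITA binds no DNA itself and is recruited by RFX proteins, CREB and NF-Y at the X and Y boxes that these promoters share. Some DLBCL are known to lose class II expression.

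In GRCh38 the annotation places CIITA (ENSG00000179583.21) at chr16:10866222-10943021 and CD74 (ENSG00000019582.17) at chr5:150401637-150412969. The other members lie in the class II region of chromosome 6, among them HLA-DRA (ENSG00000204287.14) at chr6:32439878-32445046, HLA-DQA1 (ENSG00000196735.13) at chr6:32628179-32647062, HLA-DMA (ENSG00000204257.15) at chr6:32948613-32969094 and HLA-DMB (ENSG00000242574.9) at chr6:32934629-32941028.

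The promoters are shown because CIITA acts through motifs that they share. RefSeq (GRCh38.p14) had promoter entries for 8 of the 10 genes; CIITA and HLA-DRA are named only. The letters ACNGATGA (part of the X box) and ATTGG (the core of the Y box) were searched on both strands, and both are in capitals, with CCAAT being ATTGG on the other strand. The printed stretches end 31 bases before the start site. The first set is of genes that rose with Ento+AZD, at chr5:150412941-150413060 (minus strand), chr6:32941059-32941178 (minus strand), chr6:32953128-32953247 (minus strand) and chr6:32637256-32637375 (plus strand).
CD74: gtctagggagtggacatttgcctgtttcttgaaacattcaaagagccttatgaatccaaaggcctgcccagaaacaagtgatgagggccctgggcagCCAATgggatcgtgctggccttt
HLA-DMB: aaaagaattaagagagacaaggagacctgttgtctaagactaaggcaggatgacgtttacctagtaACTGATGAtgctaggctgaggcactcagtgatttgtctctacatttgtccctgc
HLA-DMA: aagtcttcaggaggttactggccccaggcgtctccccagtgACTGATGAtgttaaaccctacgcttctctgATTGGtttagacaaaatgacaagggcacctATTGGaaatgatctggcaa
HLA-DQA1: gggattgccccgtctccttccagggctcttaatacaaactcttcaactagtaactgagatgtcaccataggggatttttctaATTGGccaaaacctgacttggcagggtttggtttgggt

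The second set is of beta chain genes that passed the test in none of the comparisons, at chr6:32589879-32589998 (minus strand), chr6:32666688-32666807 (minus strand) and chr6:33075840-33075959 (plus strand).
HLA-DRB1: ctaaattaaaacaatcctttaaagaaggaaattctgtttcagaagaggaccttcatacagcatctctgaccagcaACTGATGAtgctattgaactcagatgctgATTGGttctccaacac
HLA-DQB1: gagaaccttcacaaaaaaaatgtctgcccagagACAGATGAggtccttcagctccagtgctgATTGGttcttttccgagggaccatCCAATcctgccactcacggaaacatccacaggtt
HLA-DPB1: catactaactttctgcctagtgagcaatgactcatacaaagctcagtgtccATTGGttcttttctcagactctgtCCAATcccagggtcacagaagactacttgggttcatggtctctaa

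In windows from 250 bases before to 50 after the start site, ACNGATGA was found in 5 of the 8 genes, HLA-DRB1, HLA-DQB1, HLA-DMA, HLA-DMB and, on the other strand and outside the printed stretch, CD74. It was found in 2.26% of all 35116 promoter windows. ATTGG was found in 7 of the 8 genes and in 34.6% of all windows. ACNGATGA followed by ATTGG after 10 to 30 bases was found in HLA-DRB1 and HLA-DQB1, with 21 bases between them, and in HLA-DMA, with 22, beside 0.0598% of all windows. This order thus occurred both in a gene that rose and in genes that did not pass the test. Since the motifs were chosen after these promoter sequences were seen, the shares are a description with no test.

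The libraries had the markers of B cells. The 7 B cell markers were all tested and summed to 3827 to 7838 CPM per library, where CPM are reads of a gene scaled to library size with TMM factors. The 6 plasma cell markers, of which 3 were tested, summed to 588 to 949 CPM, well above the lists of myeloid and T cells. That sum came from few of the 6 genes. PRDM1 and IRF4 of this list had too few counts to be tested, and XBP1 was low, with counts given below. The 10 myeloid and dendritic markers, of cells that also carry class II molecules, summed to 2.41 to 7.78 CPM, with FCER1A, CLEC9A and S100A8 at 0 in all 12 libraries and CD14 at 0 to 3 counts. The 8 T and NK cell markers summed to 1.89 to 4.54 CPM, with CD3D, CD2 and GNLY at 0. Of the 6 stromal and endothelial markers COL1A2, COL3A1 and VWF were at 0, while DCN and PECAM1 were expressed and the sum was 48.5 to 209.6 CPM.

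In DMSO the members spanned a wide range of levels. Per kilobase of annotated exon, HLA-DRA stood at 892 ± 288 CPM (SD, n = 3), CD74 at 715 ± 210.5, HLA-DPA1 at 85.5 ± 26.0 and HLA-DPB1 at 80.2 ± 31.8. They were followed by HLA-DRB1 at 64.5 ± 16.2, HLA-DMA at 47.5 ± 15.1, HLA-DQB1 at 43.4 ± 11.5, HLA-DQA1 at 37.1 ± 10.6, HLA-DMB at 23.0 ± 8.27 and CIITA at 8.33 ± 2.89 CPM per kilobase. HLA-DRA exceeded CD74 in the 3 DMSO libraries but in only 6 of all 12. The pairs HLA-DPA1 and HLA-DPB1, HLA-DMA and HLA-DQB1, and HLA-DQB1 and HLA-DQA1 kept their order in 9 of 12 libraries, and the other neighbours in 11 or 12. Per kilobase of the canonical transcript CD74 came first, at 1959 CPM, and HLA-DRA second, at 899, and HLA-DPB1 dropped from rank 4 to rank 8. The 10 members together took 0.443% to 1.05% of the counts of a library.

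The libraries differed by replicate number, as the plot of CPM by group shows. Replicate 3 had the lowest level of every member in all 4 groups, apart from CD74 with AZD, where replicate 1 was lower. Replicate 2 had the highest level in all 4 groups for every member but HLA-DQB1, which was highest in replicate 1.

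**Figure D1:**
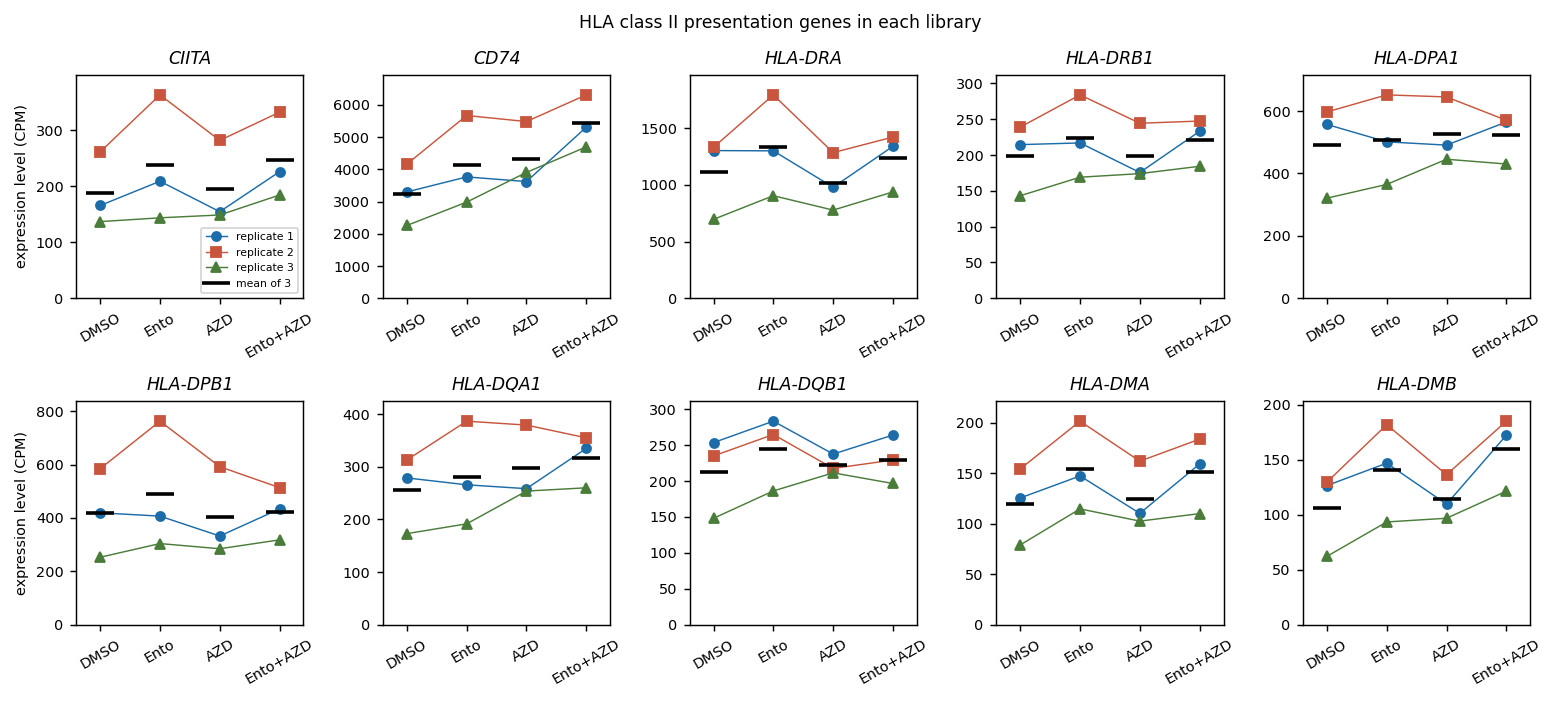
Expression level in CPM (y axis, from 0) of the 10 HLA class II presentation genes in the 12 libraries by group (x axis). Symbols and lines mark the 3 replicate numbers and black bars the group means; the replicate 3 libraries lie lowest, except for CD74 with AZD, and the replicate 2 libraries highest, except for HLA-DQB1.

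The difference of replicate 2 over replicate 3 in the model of all libraries is given as a description with no test, since these numbers were picked for these levels. On the log2 scale it was 1.01 ± 0.08 (± SE) for CIITA, 1.08 ± 0.10 for HLA-DPB1, 0.68 ± 0.10 for CD74 and 0.35 ± 0.09, the lowest, for HLA-DQB1. The members had a median of 0.75, beside 0.01 over all tested genes. The median was 0.72 for 9 other class II region genes, 0.62 for 7 B cell markers and 0.19 for 17 class I genes. Among markers of other cells it was 0.46 for 3 tested plasma cell and 1.19 for 2 stromal and endothelial genes. It was 1.45 for the 2 tested myeloid and dendritic markers and 0.29 for 2 of T and NK cells, both lists of very low level. In bulk RNA, fewer cells with a transcript and less of it per cell cannot be told apart. Replicate number is a term of every test below, and the SD of a group includes it.

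Ento+AZD exposure raised 5 of the 10 members over DMSO, CD74, HLA-DMB, CIITA, HLA-DMA and HLA-DQA1, by 1.27-fold to 1.72-fold, and lowered none (adjusted p under 0.05, edgeR quasi-likelihood test). Of all tested genes 40.0% passed, 19.2% as higher and 20.8% as lower. None of the members was a differentially expressed gene (DEG, which also needs an absolute log2 fold change over 1), beside 8.32% of all genes. All 10 estimates were positive, with a median log2 fold change of 0.26 beside 0.01 over all genes. The number of members higher in all 3 replicate-numbered pairs was 7, beside 29.8% of all genes. The chain genes other than HLA-DQA1 did not pass.

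CD74, the chaperone of class II chains, had the highest estimate. It stood at 3297, 4159.6 and 2257 CPM in DMSO replicates 1 to 3, at 3763, 5667 and 2981 with Ento, at 3619, 5479.7 and 3903 with AZD and at 5304, 6307 and 4694 with Ento+AZD. The 3 Ento+AZD libraries lay above the 3 DMSO libraries, which held for no other member and for 19.1% of all genes. CD74 rose 1.72-fold (95% CI 1.45 to 2.03) with Ento+AZD, a log2 difference of 0.78 ± 0.11 (adjusted p = 0.000128). It rose by 0.44 ± 0.11 (adjusted p = 0.0140) with AZD alone, and its estimate with Ento alone was 0.34 ± 0.11 (adjusted p = 0.0748).

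The HLA-DM genes rose in both groups that received Ento. HLA-DMB stood at 126, 129.7 and 62.1 CPM in DMSO replicates 1 to 3, at 147, 182 and 93.4 with Ento, at 109.6, 136 and 96.8 with AZD and at 172, 185 and 121 with Ento+AZD. Each exposed library exceeded the DMSO library of its number, except AZD replicate 1, while the groups overlapped. HLA-DMB rose by 0.63 ± 0.12 (adjusted p = 0.000860) on the log2 scale with Ento+AZD and by 0.42 ± 0.12 (adjusted p = 0.0409) with Ento, with 0.16 ± 0.12 (adjusted p = 0.346) for AZD.
HLA-DMA stood at 126, 154 and 79.0 CPM in DMSO replicates 1 to 3, at 147, 202 and 115 with Ento, at 110.3, 162 and 103 with AZD and at 159, 184 and 110.1 with Ento+AZD. Its libraries had the same order within numbers for Ento and Ento+AZD over DMSO, and again overlapped between groups. HLA-DMA rose by 0.36 ± 0.09 (adjusted p = 0.00715) with Ento+AZD and by 0.38 ± 0.09 (adjusted p = 0.0206) with Ento, with 0.09 ± 0.09 (adjusted p = 0.534) for AZD. Its exons share 55 bases with BRD2, a BET gene on the opposite strand, and the library kit does not mark strand. On the same strand, HLA-DMA shares 160 exon bases and HLA-DMB 438 with ENSG00000248993.

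CIITA, the coactivator of the other members, stood at 166, 261 and 137 CPM in DMSO replicates 1 to 3, at 209, 363 and 144 with Ento, at 154, 282 and 149 with AZD and at 226, 332 and 184 with Ento+AZD. Each Ento+AZD library exceeded the DMSO library of its number, and all groups overlapped. CIITA rose 1.33-fold (95% CI 1.16 to 1.52) with Ento+AZD, a log2 difference of 0.41 ± 0.09 (adjusted p = 0.00326). The estimates were 0.30 ± 0.09 (adjusted p = 0.0611) with Ento and 0.05 ± 0.09 (adjusted p = 0.765) with AZD. Its exons share 2424 bases with DEXI on the opposite strand and 2378 with ENSG00000280153 on the same strand, so reads there cannot be told apart.

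HLA-DQA1 was the chain gene that rose. It stood at 279, 313 and 173 CPM in DMSO replicates 1 to 3, at 266, 387 and 192 with Ento, at 259, 379.6 and 254 with AZD and at 335, 355 and 260.2 with Ento+AZD. Each Ento+AZD library exceeded its DMSO library. HLA-DQA1 rose by 0.34 ± 0.11 (adjusted p = 0.0274) with Ento+AZD, and the estimates were 0.13 ± 0.11 (adjusted p = 0.533) with Ento and 0.24 ± 0.11 (adjusted p = 0.145) with AZD.
HLA-DQB1, its partner chain, stood at 254, 235 and 148 CPM in DMSO replicates 1 to 3, at 283, 265 and 186 with Ento, at 238, 218 and 211 with AZD and at 264, 229 and 197 with Ento+AZD. Replicate 3 was higher in all exposed groups, the other numbers less uniformly. The estimates were 0.22 ± 0.10 (adjusted p = 0.214) with Ento, 0.10 ± 0.10 (adjusted p = 0.509) with AZD and 0.14 ± 0.10 (adjusted p = 0.310) with Ento+AZD.
HLA-DRA, the alpha chain of all DR molecules, stood at 1302, 1331 and 696 CPM in DMSO replicates 1 to 3, at 1299.8, 1793 and 904 with Ento, at 979, 1284 and 777 with AZD and at 1339.7, 1422 and 937 with Ento+AZD. With Ento, replicates 2 and 3 were above their DMSO libraries and replicate 1 was level with it. The estimates were 0.27 ± 0.10 (adjusted p = 0.125) with Ento, −0.10 ± 0.10 (adjusted p = 0.495) with AZD and 0.18 ± 0.10 (adjusted p = 0.166) with Ento+AZD.
Of the remaining chains, HLA-DRB1 stood at 215, 239 and 143 CPM with DMSO and 233, 247 and 184 with Ento+AZD, HLA-DPA1 at 557, 597 and 321 and 565, 570.3 and 430.2, and HLA-DPB1 at 419, 584 and 252 and 433, 513 and 318. The 95% intervals of their log2 fold changes were −0.03 to 0.38 for HLA-DRB1, −0.11 to 0.35 for HLA-DPA1 and −0.18 to 0.32 for HLA-DPB1. Exons of HLA-DPA1 and HLA-DPB1 share 96 bases on opposite strands.

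**Figure D2:**
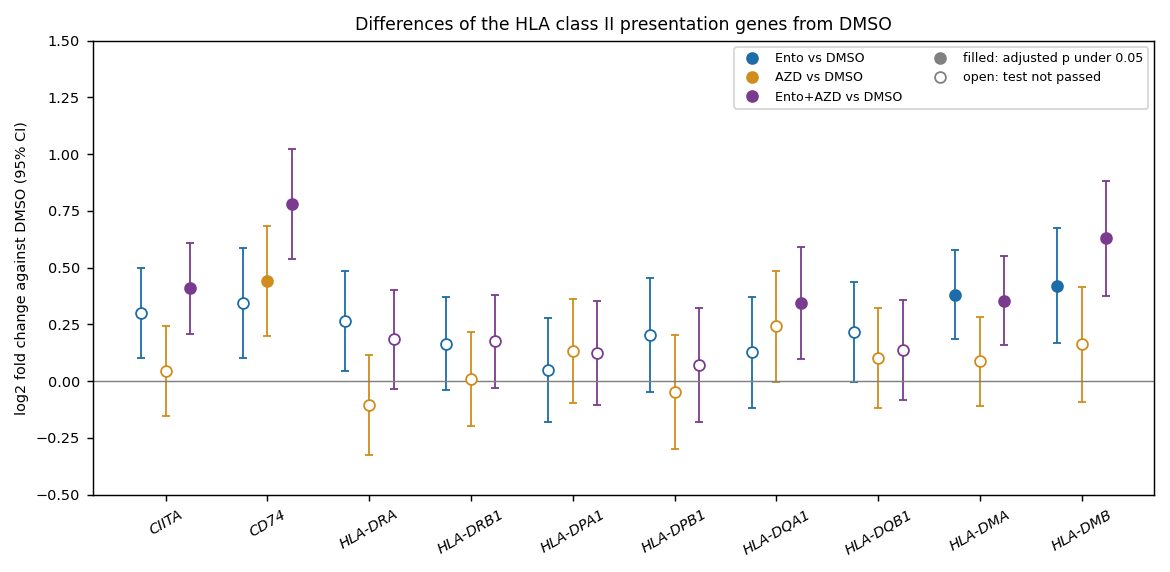
Log2 fold change against DMSO (y axis, with 95% confidence intervals) of the 10 genes (x axis) after exposure to Ento, AZD or Ento+AZD, from the model of all 12 libraries. Filled symbols passed the test; CD74 with Ento+AZD is highest at 0.78 and HLA-DRA with AZD lowest at −0.10.

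HLA-DRB1 has close copies between which reads may be split. Of the counts on 4 DRB genes, HLA-DRB1 took 43.0% to 47.5% per library, HLA-DRB5 47.6% to 52.1%, HLA-DRB3 2.12% to 2.78% and HLA-DRB4 1.91% to 2.44%. With the DRB, DQA and DQB copies each summed, the number of members that passed was the same in all 7 comparisons.

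Ento alone raised HLA-DMA and HLA-DMB, 2 of the 10 members, and lowered none. Of all tested genes 8.32% passed, 4.66% as higher and 3.66% as lower, and 1.63% were DEGs, none of them members. All 10 estimates were positive, from 0.05 (HLA-DPA1) to 0.42 (HLA-DMB), with a median of 0.24 beside 0.01 over all genes. The number higher in all 3 pairs was 6, beside 22.5% of all genes. At an unadjusted p under 0.05, 5 members passed, beside 24.3% of all genes.

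AZD alone raised CD74, 1 of the 10 members, and lowered none. Of all tested genes 22.2% passed, 9.57% as higher and 12.7% as lower, and 3.19% were DEGs, none of them members. The other members lay between −0.10 (HLA-DRA) and 0.24 (HLA-DQA1). In replicate 1 the AZD library was below its DMSO library for every member but CD74, and in replicate 3 it was above for all 10. CD74 was thus the 1 member higher in all 3 pairs, beside 25.6% of all genes.

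Some of these calls were lost when 1 library was left out, which also lowers the number of libraries in the fit, and these are not told apart here. With Ento+AZD, CD74, CIITA and HLA-DMB passed in each of 12 fits that left out 1 library. HLA-DMA was lost without Ento+AZD replicate 1 (log2 fold change 0.29, adjusted p = 0.0554) and HLA-DQA1 without Ento+AZD replicate 1, DMSO replicate 2, DMSO replicate 3 or Ento+AZD replicate 3 (log2 fold change 0.25 to 0.33, adjusted p from 0.0705 to 0.131). With Ento, HLA-DMA was lost without Ento replicate 1, Ento replicate 2, DMSO replicate 3 or Ento replicate 3 (log2 fold change 0.29 to 0.41, adjusted p from 0.0680 to 0.113) and HLA-DMB without Ento replicate 1, Ento+AZD replicate 1, DMSO replicate 2, Ento replicate 2, AZD replicate 2, DMSO replicate 3 or Ento replicate 3 (log2 fold change 0.27 to 0.47, adjusted p from 0.0605 to 0.211). With AZD, CD74 was lost without AZD replicate 2, DMSO replicate 3 or AZD replicate 3 (log2 fold change 0.32 to 0.45, adjusted p from 0.0510 to 0.108). Without replicate number as a term, none of the members passed in any comparison by edgeR, and 1, CD74 with Ento+AZD (adjusted p = 0.0707), had an unadjusted p under 0.05.

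The exposed groups were also compared with each other, in comparisons that share libraries with those against DMSO. Ento+AZD exceeded Ento for CD74 by 0.43 ± 0.11 (adjusted p = 0.0147), 1 of 10 members beside 20.4% of all genes. Ento+AZD exceeded AZD for HLA-DMB by 0.47 ± 0.12 (adjusted p = 0.0218) and for CIITA by 0.36 ± 0.09 (adjusted p = 0.0231), 2 of 10 beside 11.9%. Ento exceeded AZD for HLA-DRA by 0.37 ± 0.10 (adjusted p = 0.0253) and for HLA-DMA by 0.29 ± 0.09 (adjusted p = 0.0447), 2 of 10 beside 14.7%. The CD74 call was lost without Ento replicate 1, Ento+AZD replicate 1, Ento replicate 3 or Ento+AZD replicate 3 (adjusted p from 0.0613 to 0.117), CIITA without AZD replicate 1, Ento+AZD replicate 1, AZD replicate 2 or Ento+AZD replicate 3 (0.0789 to 0.147), HLA-DMB without AZD replicate 1, Ento+AZD replicate 1, AZD replicate 2 or Ento+AZD replicate 3 (0.0716 to 0.136) and HLA-DRA without AZD replicate 1, Ento replicate 2, AZD replicate 2 or Ento replicate 3 (0.0687 to 0.143). HLA-DMA was lost without Ento replicate 1, AZD replicate 1, Ento+AZD replicate 1, Ento replicate 2, AZD replicate 2, Ento replicate 3 or Ento+AZD replicate 3 (adjusted p from 0.0579 to 0.222).
Whether both agents together departed from the sum of their single effects was tested as an interaction. No member passed with edgeR, limma voom or DESeq2, and none had an unadjusted p under 0.05 with any of them (lowest p 0.233 with edgeR). Over all 16835 genes, edgeR and voom called 0 and DESeq2 8, with 9.81% at an unadjusted p under 0.05 in edgeR, and without the filter on low counts edgeR called 278, none of them members. The estimates lay between −0.18 (HLA-DQB1) and 0.06 (CIITA), and the 95% intervals of the 10 members together spanned −0.49 (HLA-DQB1) to 0.40 (HLA-DMB).

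Ratios of counts within a library, chosen after the data were seen and given as a description, set CD74 and HLA-DM beside the 6 chain genes they serve. CD74 over the summed chains was 1.09, 1.26 and 1.30 in DMSO replicates 1 to 3, 1.27, 1.37 and 1.41 with Ento, 1.46, 1.63 and 1.82 with AZD and 1.67, 1.89 and 2.02 with Ento+AZD. All 6 libraries with AZD lay above all 6 without it. The mean ratio was 1.34-fold that of DMSO with AZD and 1.53-fold with Ento+AZD.
HLA-DMA plus HLA-DMB over the chains was 0.0833, 0.0861 and 0.0814 with DMSO, 0.0990, 0.0926 and 0.0982 with Ento, 0.0889, 0.0888 and 0.0929 with AZD and 0.105, 0.111 and 0.0995 with Ento+AZD. DMSO was lowest and Ento+AZD highest, without overlap with other groups, and the fold of Ento+AZD over DMSO was 1.25. With counts per kilobase that fold was 1.21, and Ento+AZD replicate 3 was then below AZD replicate 3. CIITA over the chains was 0.0547, 0.0792 and 0.0789 with DMSO and 0.0712, 0.0995 and 0.0792 with Ento+AZD, and these overlapped.

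**Figure D3:**
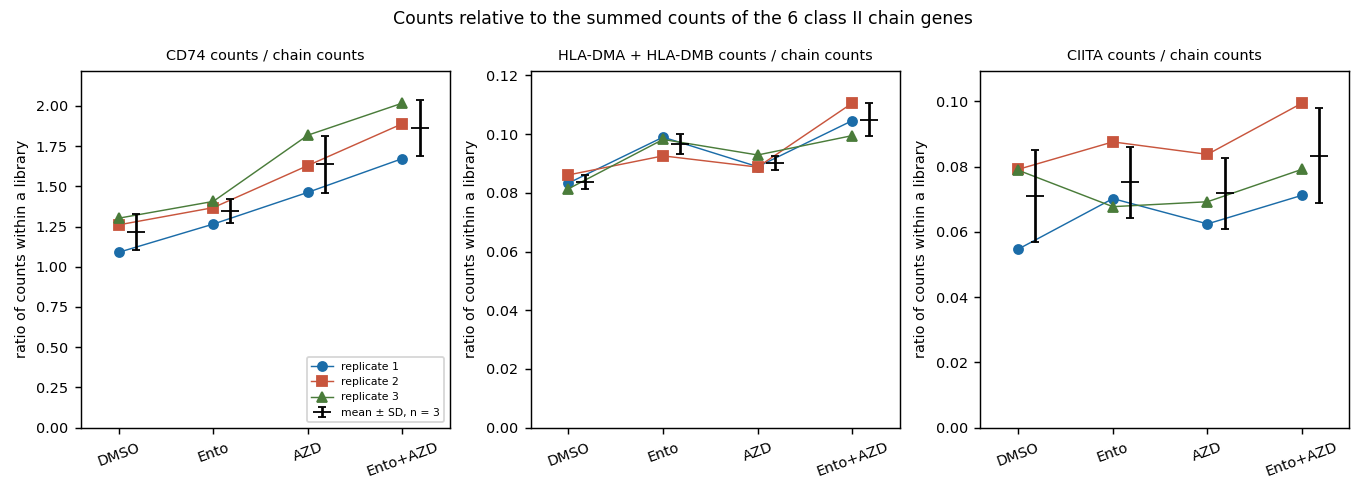
Counts of CD74 (left), HLA-DMA plus HLA-DMB (middle) and CIITA (right) divided by the summed counts of the 6 chain genes in each library (y axes, from 0) by group (x axis), with black bars for mean ± SD (n = 3). The CD74 ratio is 1.09 to 1.30 with DMSO and 1.67 to 2.02 with Ento+AZD, and the CIITA ratios of the groups overlap.

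Other class II genes of the region rose in part. Of 12 listed genes 9 were tested, with a median of 0.28 with Ento+AZD. In that group 3 rose and none fell, beside 19.2% of all genes higher and 20.8% lower. HLA-DOA and HLA-DOB form HLA-DO, which inhibits HLA-DM. HLA-DOA stood at 155, 169 and 96.0 CPM with DMSO and 186, 222 and 164 with Ento+AZD, each above its partner, and rose by 0.48 ± 0.10 (adjusted p = 0.00142). HLA-DOB rose by 0.37 ± 0.10 (adjusted p = 0.0108) with Ento+AZD, a call lost without Ento+AZD replicate 1 or DMSO replicate 2, and by 0.44 ± 0.10 (adjusted p = 0.0167) with Ento, lost without DMSO replicate 2, Ento replicate 2 or Ento replicate 3. HLA-DQB1-AS1, which shares 241 exon bases with HLA-DQB1 on the other strand, rose by 0.51 ± 0.15 (adjusted p = 0.0142) with Ento+AZD, lost without Ento+AZD replicate 1 or Ento+AZD replicate 3. With Ento 1 rose, HLA-DOB, beside 4.66% of all genes higher. With AZD none of the 9 passed, beside 22.2% of all genes.

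A list of 10 class II promoter factors held genes of DNA-binding proteins and of coactivators such as CREBBP. With Ento+AZD 2 of the 10 rose and none fell, beside 19.2% of all genes higher and 20.8% lower. The NF-Y subunit gene NFYA rose by 0.32 ± 0.08 (adjusted p = 0.00389) and RFX5, which encodes an X box factor, by 0.21 ± 0.07 (adjusted p = 0.0203); the RFX5 call was lost without DMSO replicate 3 or Ento+AZD replicate 3. With AZD, NFYA rose by 0.27 ± 0.08 (adjusted p = 0.0202), lost without AZD replicate 2, DMSO replicate 3 or AZD replicate 3, and NFYB, another NF-Y subunit gene, fell by 0.35 (adjusted p = 0.00920), lost without AZD replicate 3. With Ento none of the 10 passed, beside 8.32% of all genes.

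Regulators of CIITA went both ways. Of 10 tested, 2 were higher and 4 lower after Ento+AZD, 1 and 2 after AZD, and 2 and 1 after Ento. The shares of all genes were 19.2% higher and 20.8% lower after Ento+AZD, 9.57% and 12.7% after AZD, and 4.66% and 3.66% after Ento. IRF8, an interferon regulatory factor of B and myeloid cells, stood at 305, 348 and 279 CPM in DMSO replicates 1 to 3, at 384, 455 and 343 with Ento, at 404, 481 and 413 with AZD and at 481, 491 and 487 with Ento+AZD. The 3 Ento+AZD libraries lay above the 3 DMSO libraries. IRF8 rose by 0.65 ± 0.08 (adjusted p = 3.06e-05) with Ento+AZD, by 0.48 ± 0.08 (adjusted p = 0.00130) with AZD and by 0.34 ± 0.08 (adjusted p = 0.0163) with Ento, the last lost without Ento replicate 1 or Ento replicate 2.
IRF1, an interferon-induced activator of CIITA, fell by 0.67 (adjusted p = 0.00102) with Ento+AZD and by 0.41 (adjusted p = 0.0298) with AZD, the last lost in 6 of 12 fits that left out 1 library. IRF2 fell by 0.46 (adjusted p = 0.0213) with Ento+AZD, lost without DMSO replicate 1, Ento+AZD replicate 1, DMSO replicate 3 or Ento+AZD replicate 3, and by 0.44 (adjusted p = 0.0405) with AZD, lost in 6 of 12 fits that left out 1 library.
FOXP1, a B cell transcription factor gene, rose by 0.47 ± 0.09 (adjusted p = 0.00654) with Ento and by 0.33 ± 0.09 (adjusted p = 0.0110) with Ento+AZD, the last lost without DMSO replicate 2. EZH2, a histone methyltransferase gene, fell by 0.45 (adjusted p = 0.00180) with Ento+AZD. PRDM1, the plasma cell repressor of CIITA, had 0 to 5 counts per library and was not tested, nor was IRF4, with 0 to 9.

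Endosomal processing genes also went both ways. Of 12 tested, 3 were higher and 2 lower after Ento+AZD and after AZD, and 1 was lower after Ento. Beside them, 19.2% of all genes were higher and 20.8% lower after Ento+AZD, 9.57% and 12.7% after AZD, and 3.66% lower after Ento. LGMN, a lysosomal protease gene, rose by 1.08 ± 0.24 (adjusted p = 0.00274) with Ento+AZD, at low levels of 1.07, 1.15 and 1.53 CPM with DMSO and 2.49, 3.05 and 2.48 with Ento+AZD. CD63, a late endosome protein gene, fell by 0.57 (adjusted p = 0.000124), and the cathepsin gene CTSB by 0.42 (adjusted p = 0.00654), lost without Ento+AZD replicate 1. With AZD the cathepsin gene CTSS, whose enzyme cleaves CD74, fell by 0.42 (adjusted p = 0.00832), lost without AZD replicate 3, and IFI30, a lysosomal thiol reductase gene, rose by 0.47 ± 0.10 (adjusted p = 0.00624), lost without AZD replicate 3.

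Of the tested genes for surface turnover and costimulation, 4 of 7 rose with Ento+AZD and none fell. With Ento 3 rose, and with AZD 2 rose and 1 fell. Among all genes, 19.2% were higher and 20.8% lower with Ento+AZD, 4.66% higher with Ento, and 9.57% higher and 12.7% lower with AZD. CD40, the receptor for T cell help, stood at 67.4, 75.0 and 54.4 CPM in DMSO replicates 1 to 3, at 79.3, 139.9 and 68.4 with Ento, at 70.0, 95.3 and 58.5 with AZD and at 117, 148 and 88.3 with Ento+AZD. Each Ento+AZD library exceeded the 3 DMSO libraries, and CD40 rose by 0.82 ± 0.10 (adjusted p = 4.47e-05). With Ento it rose by 0.49 ± 0.10 (adjusted p = 0.0107), lost without Ento replicate 2. ICOSLG, a ligand of ICOS on T cells, rose by 0.52 ± 0.11 (adjusted p = 0.00209) with Ento+AZD, and CD83, a membrane protein that limits class II removal, by 0.35 ± 0.09 (adjusted p = 0.00791), lost without Ento+AZD replicate 1. MARCHF8, a ubiquitin ligase gene, rose by 0.27 ± 0.08 (adjusted p = 0.0118), lost without DMSO replicate 2 or Ento+AZD replicate 3, and its relative MARCHF1 fell by 0.47 (adjusted p = 0.0460) with AZD, lost in 10 of 12 fits that left out 1 library.

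Class I presentation genes were listed for comparison. With AZD 8 of 17 tested fell and 3 rose, beside 12.7% of all genes lower and 9.57% higher. Their median with AZD was −0.22, beside 0.09 for the members. With Ento 3 rose, beside 4.66% of all genes, and with Ento+AZD 6 rose and 6 fell, beside 19.2% and 20.8%. NLRC5, the class I counterpart of CIITA, stood at 13.9, 17.4 and 6.37 CPM in DMSO replicates 1 to 3 and at 6.36, 10.8 and 3.34 with AZD. Each AZD library was below its DMSO library. NLRC5 fell by 0.90 (adjusted p = 0.000430) with AZD, and its rise of 0.40 ± 0.11 (adjusted p = 0.0421) with Ento was lost in 8 of 12 fits that left out 1 library. HLA-B rose by 0.83 ± 0.12 (adjusted p = 0.000117) and the immunoproteasome gene PSMB8 fell by 0.65 (adjusted p = 0.000151) with Ento+AZD. The difference between the class I and class II lists was not tested.

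**Figure D4:**
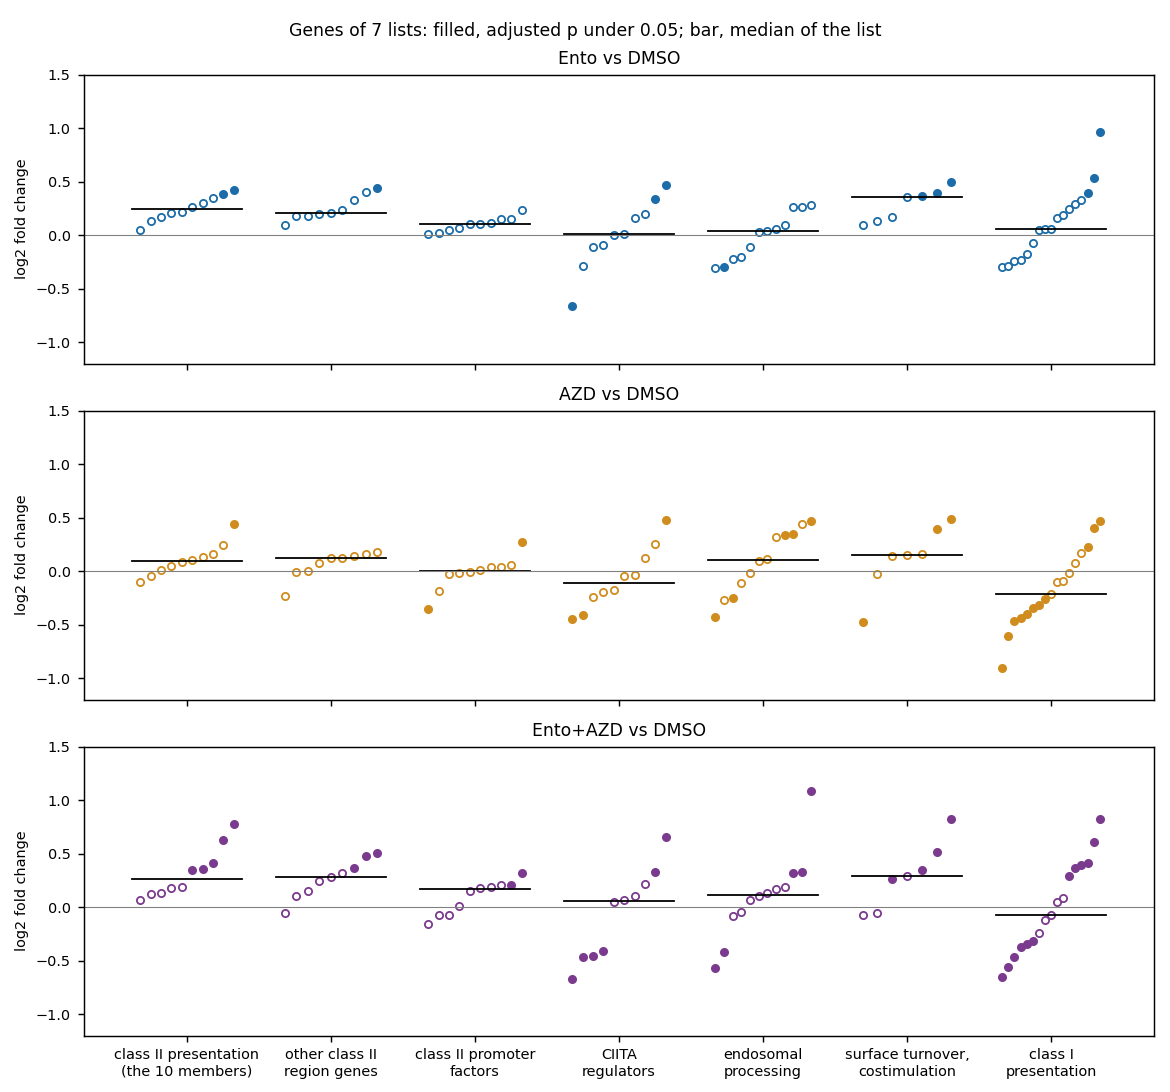
Log2 fold change against DMSO (y axis) of each tested gene of 7 lists (x axis) with Ento (top), AZD (middle) and Ento+AZD (bottom), sorted within a list. Filled symbols passed the test and black bars are list medians; for the class II members the bars are at 0.24, 0.09 and 0.26, for the class I genes at 0.05, −0.22 and −0.07.

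B cell markers also rose in part, and none fell. With Ento+AZD 5 of 7 rose (median 0.52), with Ento 4 (0.39) and with AZD 2 (0.11). The shares of all genes that rose were 19.2%, 4.66% and 9.57% in the same order. CD22 rose by 0.79 ± 0.15 (adjusted p = 0.00110) with Ento+AZD. Their summed level was 3827 to 6015 CPM with DMSO, 4555 to 7838 with Ento, 5183 to 7599 with AZD and 5776 to 7619 with Ento+AZD. Of 6 plasma cell markers 3 were tested and they went both ways. XBP1 rose by 1.70 ± 0.16 (adjusted p = 6.69e-06) with Ento+AZD, at 55 to 245 counts per library, and also with Ento and with AZD. TNFRSF17 fell by 0.63 (adjusted p = 0.0106) with Ento+AZD, lost without Ento+AZD replicate 3, and by 0.53 (adjusted p = 0.0433) with AZD, lost in 5 of 12 fits that left out 1 library.
Of the myeloid and dendritic markers, CD68 rose by 0.75 ± 0.25 (adjusted p = 0.0286) with Ento+AZD, lost without Ento+AZD replicate 1, DMSO replicate 2, DMSO replicate 3 or Ento+AZD replicate 3, at 2.34, 2.61 and 1.69 CPM with DMSO and 3.23, 4.67 and 3.38 with Ento+AZD. Of the endothelial and stromal markers, PECAM1 rose by 0.84 ± 0.18 (adjusted p = 0.0111) with Ento, lost without Ento replicate 1 or Ento replicate 3, and by 0.81 ± 0.18 (adjusted p = 0.00261) with Ento+AZD, while DCN fell by 0.55 (adjusted p = 0.00239) with AZD and by 0.45 (adjusted p = 0.00283) with Ento+AZD. Of the T and NK cell markers, CD3E fell by 1.02 (adjusted p = 0.0241) with AZD, lost in 5 of 12 fits that left out 1 library. It was also lost with DESeq2 and with only the groups compared. Its level was very low, since the whole list summed to at most 4.54 CPM in a library. The part of these markers in the values of the members was not tested.

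With replicate number removed, the profile of CIITA over the 12 libraries was most like those of ZCWPW1 (0.97 and 0.98), SLC41A1 (0.97 and 0.96), FBRS (0.96 and 0.95), SEMA6A (0.96 and 0.92) and DMPK (0.96 and 0.91), given with Pearson's r and Spearman's rho, among 11420 protein-coding genes outside the lists. For the mean profile of the other 9 members they were DPM2 (0.95 and 0.90), TOR3A (0.95 and 0.94), CNPY2 (0.95 and 0.90), HDHD3 (0.93 and 0.90) and THY1 (0.93 and 0.88). The libraries share groups, so these values only describe likeness.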

How the data were processed

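RNA of 12 SU-DHL-4 libraries was sequenced as single reads. The authors trimmed the reads, aligned them to GRCh38.p13 and assigned them to genes with Rsubread. The counts deposited are raw whole numbers. A log2 table deposited by the authors for 16226 genes was used only as a check, and its members differ by at most 0.00396 from log2 CPM (prior count 2). Counting settings are not given in the sources used here.

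Counts were analysed with edgeR 4.0.16 in R 4.3.3 (filterByExpr with minimum count 10 and total 15, TMM, group and replicate number in 1 model of 12 libraries, quasi-likelihood test, adjustment after Benjamini and Hochberg over 16835 genes). SE was taken from the estimate and its F value. Alternatives used DESeq2 1.42.0 and limma 3.58.1, and scripts were tested on simulated data.

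The labels number the replicates and the study's model holds a batch term. Residuals from group means correlated at 0.213 to 0.703 within a number (18 pairs) and at −0.627 to 0.325 between numbers (36 pairs). The study describes the samples behind its statistics in general as biologically independent. What the replicate numbers of these libraries stand for is not given in the sources used here, and p-values measure the spread between these libraries.

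All members are named, 5 genes per profile by likeness, and examples of the list genes that passed or that a sentence turns on. Counts per list cover all its tested genes, of which 2 that passed are not reported here one by one. Members and lists were chosen with earlier results of these data known, ratios and the replicate difference after the values were seen, and motifs after the promoter sequences were seen. Coordinates are from GENCODE v44.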

Additional observations from a re-analysis of the deposited data

How the results depend on the processing

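The 70 member values had 1600 alternative fits in all, pooled over values, and 115 of these fits changed the sign. Of the values, 33 changed sign in at least 1 of their own fits, none of them a value that had passed. The largest of the 33 was 0.16 in size. The number of members passing was, for Ento against DMSO, 2, and 0 with no replicate block, 4 with DESeq2 and 5 with no filter. For AZD against DMSO it was 1, and 0 with no replicate block and 2 with no filter. For Ento+AZD against DMSO it was 5, and 0 with no replicate block. For Ento+AZD against Ento it was 1, and 0 with no replicate block. For Ento+AZD against AZD it was 2, and 0 with no replicate block, 4 with DESeq2 and 5 with no filter or with only the groups compared. For Ento against AZD it was 2, and 0 with no replicate block and 5 with no filter or with only the groups compared. With RLE factors, limma voom or summed copies these counts were the same. Scaling by library size only gave 3 for Ento+AZD against AZD and 3 for Ento against AZD, and the same counts otherwise. Leaving out 1 library, or all libraries of 1 number (added after the data were seen), gave 0 to 4, 0 to 2, 3 to 6, 0 to 1, 0 to 5 and 0 to 3 in the same order. Over all genes, the counts passing with and without the replicate block were 1401 and 36 for Ento, 3745 and 326 for AZD and 6736 and 2398 for Ento+AZD against DMSO, 3440 and 206 for Ento+AZD against Ento, 2001 and 17 for Ento+AZD against AZD, and 2478 and 539 for Ento against AZD. No filter gave 2294 for Ento against DMSO and 278 for the interaction (0 with the filter, 8 with DESeq2), and only the groups compared gave 2343 for AZD against DMSO and 3907 for Ento against AZD. The cause of these changes was not tested.

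All values that follow are log2 fold changes. With library size only, AZD against DMSO turned to −0.013 for CIITA and −0.048 for HLA-DRB1, which was −0.0064 with no replicate block. For Ento against DMSO, leaving out 1 library gave HLA-DPA1 −0.078 to 0.15. For Ento against DMSO without replicate 2 of every group, values were HLA-DPA1 −0.0045. For Ento against DMSO without replicate 3 of every group, values were HLA-DPA1 −0.019. For AZD against DMSO, leaving out 1 library gave CIITA −0.026 to 0.13, HLA-DMA −0.012 to 0.19, HLA-DPB1 −0.14 to 0.049, HLA-DQB1 −0.041 to 0.18, HLA-DRA −0.20 to 0.020 and HLA-DRB1 −0.084 to 0.12. For AZD against DMSO without replicate 1 of every group, values were HLA-DPB1 0.093 and HLA-DRA 0.053. For AZD against DMSO without replicate 2 of every group, values were HLA-DRB1 −0.012. For AZD against DMSO without replicate 3 of every group, values were HLA-DMA −0.056, HLA-DMB −0.068, HLA-DPA1 −0.034, HLA-DQB1 −0.10 and HLA-DRB1 −0.13. For Ento+AZD against DMSO, leaving out 1 library gave HLA-DPA1 −0.0028 to 0.23 and HLA-DPB1 −0.021 to 0.23. For Ento+AZD against DMSO without replicate 3 of every group, values were HLA-DPA1 −0.020 and HLA-DPB1 −0.059. Of 89 calls of list genes against DMSO, markers included, 11 remained with no replicate block and 41 in every fit leaving out 1 library. Depth does not limit the members, since 1 count was at most 0.0564 CPM.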
